A study of Caenorhabditis elegans with 32 samples.

Results

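The major sperm protein (msp) genes were taken as the rows of the count table named msp followed by a number, which gave 31 genes of 46926 in all. Messenger RNA was sequenced from whole day 1 adult hermaphrodites of Caenorhabditis elegans, grown at 20 °C on OP50 bacteria, in 4 strains that differ at lotr-1, whose product is found in germ granules and has a LOTUS and a Tudor domain. Each lysate was split into a sample of total mRNA (lysate) and a sample of mRNA that sedimented with polysomes on a sucrose gradient (polysome), with replicates 1 to 4 per strain, giving 32 libraries. The wild type control, DUP167, carries allele sam85, an N-terminal 3xFLAG::GFP tag on lotr-1. The 3 mutants are DUP207 (ΔLOTR-1, sam117, the whole reading frame removed in frame), DUP217 (ΔLOTUS, sam113, lacking the LOTUS domain) and DUP185 (ΔTudor, sam102, lacking the Tudor domain). Each genotype is represented by 1 strain, so an effect of the allele cannot be told apart from other sequence differences between strains, and the 3 mutants were compared with the same wild type libraries.

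Major sperm protein is the small, abundant cytoskeletal protein of nematode sperm. It polymerises into filaments that let the amoeboid sperm crawl, and sperm also release it as a signal that prompts oocyte maturation and contraction of the gonadal sheath. In C. elegans its many nearly identical gene copies are transcribed in developing sperm cells, and the protein is stored in fibrous body-membranous organelles until the spermatids form. Hermaphrodites of this species make a limited set of sperm before they switch to making oocytes.

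All 31 genes matched the RefSeq annotation of assembly WBcel235, all as protein-coding genes. They lay on 2 chromosomes, 13 on II and 18 on IV, and 12 had another msp gene as a protein-coding neighbour. The coding length was 384 bases for 28 of them, 360 for msp-32 and 234 each for msp-58 and msp-74. A further 4 msp entries of that annotation are pseudogenes and were not among the members. Because the copies are so alike, the deposited counting divided most reads between them: 99.9% of the positive values of the msp rows were not whole numbers, against 15.29% over all rows. The level of a single copy is therefore less certain than the sum over the family. In addition msp-31 overlaps aagr-2, msp-33 overlaps gst-9 and msp-45 overlaps srb-13, so their values are uncertain as well.

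Total counts were 31.4 to 40.2 M per lysate library and 27 to 36.2 M per polysome library, of which the msp genes took 0.0463% to 0.580% and 0.109% to 1.30%. Wild type lysates held lotr-1 at 106.9 to 329 CPM (counts scaled to a common library size) and ΔLOTR-1 lysates at 28.1 to 80.8 CPM. In polysomes the ranges were 40.6 to 111.4 and 41.6 to 124.9 CPM, so lotr-1 did not set apart the polysome libraries labelled ΔLOTR-1. Genes for oocytes and eggshells, yolk, muscle, intestine and cuticle collagens were all detected, and none of these lists held a gene at 0 throughout. Libraries that shared a replicate number resembled each other across strains: each of the 32 correlated best with a library of its own number. Libraries numbered 3 and 4 stood apart from those numbered 1 and 2 in many genes.

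The summed msp level differed mainly by replicate number, and much less by strain. In wild type lysates it was 636 CPM in replicate 1, 678 in replicate 2, 3829 in replicate 3 and 4475 in replicate 4. In ΔLOTR-1 lysates the 4 values were 1057, 991, 3589 and 4029 CPM, in ΔLOTUS 680, 427, 3184 and 4759 CPM, and in ΔTudor 924, 415, 3291 and 4713 CPM. Each strain thus held 2 low and 2 high lysates, and the lowest lysate numbered 3 or 4 was above the highest numbered 1 or 2 over all 4 strains. In a whole-animal sample, fewer sperm and less msp RNA per sperm cannot be told apart.

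The polysome libraries repeated this division at higher levels. The wild type measured 1689, 1830, 9162 and 10550 CPM in replicates 1 to 4, and ΔLOTR-1 measured 3119, 3005, 8915 and 10150 CPM. ΔLOTUS measured 1934, 1204, 8131 and 15520 CPM, and ΔTudor 2594, 1213, 9478 and 12140 CPM. Replicate number accounted for 94.5% of the variance of the log2 summed level in lysates and 92.5% in polysomes, and strain for 1.57% and 1.53%.

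**Figure D1:**
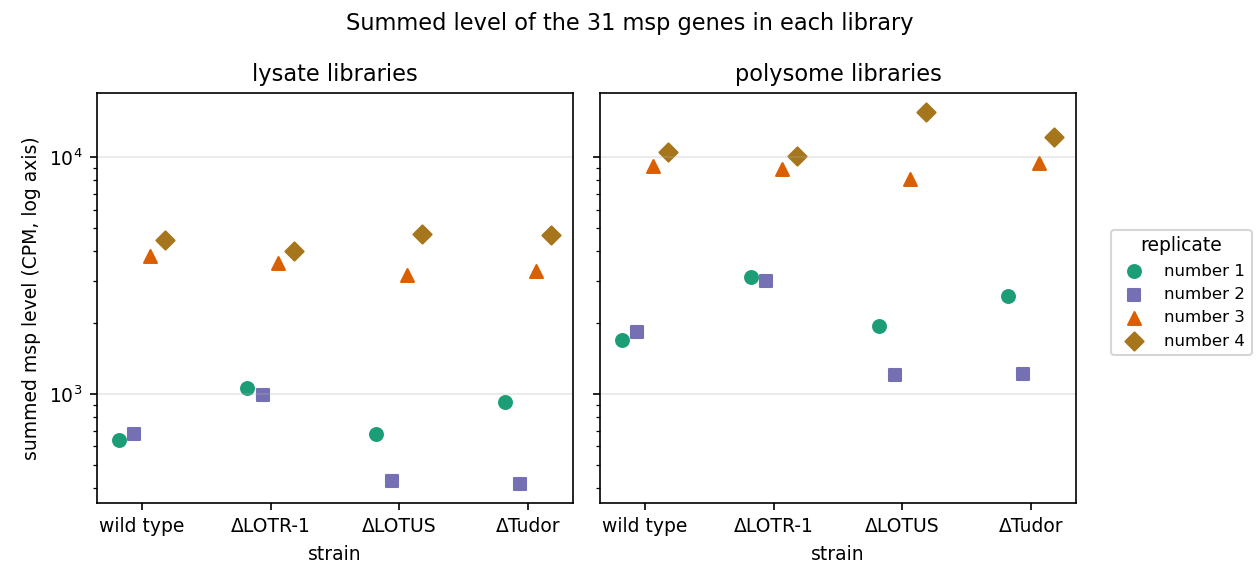
Summed level of the 31 msp genes (CPM, log axis) in each of the 32 libraries, by strain on the x axis, with lysate and polysome libraries in separate panels; each point is 1 library and its colour and shape give the replicate number. Numbers 3 and 4 lie above numbers 1 and 2 in every strain and both fractions.

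The difference by replicate number held for nearly every copy. In the lysates 29 of the 29 msp genes that passed the low-count filter differed by number (edgeR's quasi-likelihood test, p-values adjusted after Benjamini and Hochberg, from 2.09e-09 to 1.35e-06), but so did 87.7% of all genes tested. In the polysomes 30 of 30 differed, against 78.5% of all genes (edgeR, adjusted p from 3.15e-09 to 0.00686). Called in this way, the msp genes were close to the background, and it is the size and the common direction of their differences that set them against the median gene. Against number 1, the median log2 change of the msp genes in lysates was -0.42 for number 2, 2.15 for number 3 and 2.51 for number 4. Over all genes tested, the same medians were -0.01, 0.13 and 0.26. In polysomes the msp medians were -0.40, 1.94 and 2.38, beside 0.01, 0.09 and 0.12 for all genes. Of 30 copies tested over the 32 libraries, 29 had all 8 lysates numbered 3 and 4 above all 8 numbered 1 and 2, an ordering found in 30.5% of all genes. The same held for 29 in polysomes, where the share of all genes was 23.8%. The exception in both fractions was msp-58, a barely detected copy. These counts and those of the tests include msp-74, which passed the low-count filter only through its libraries numbered 3 and 4. The polysome test also includes msp-58, which passed that filter mainly through libraries numbered 3 and 4.

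Levels per kilobase of coding sequence separated 27 well-expressed copies from 4 weak ones, a grouping made after the levels were seen. The 27 ranged from 88.3 to 444 CPM per kilobase in lysates on average, and each contributed 1.46% to 7.27% of the family sum. The weak copies were msp-63 at 7.40, msp-74 at 3.28, msp-58 at 0.350 and msp-32 at 0.107 CPM per kilobase. Among the 27, the 10 on chromosome II had a median lysate level of 84.6 CPM and the 17 on chromosome IV one of 95.3 CPM, with ranges that overlapped (49.3 to 118.5 and 33.9 to 170 CPM).

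**Figure D2:**
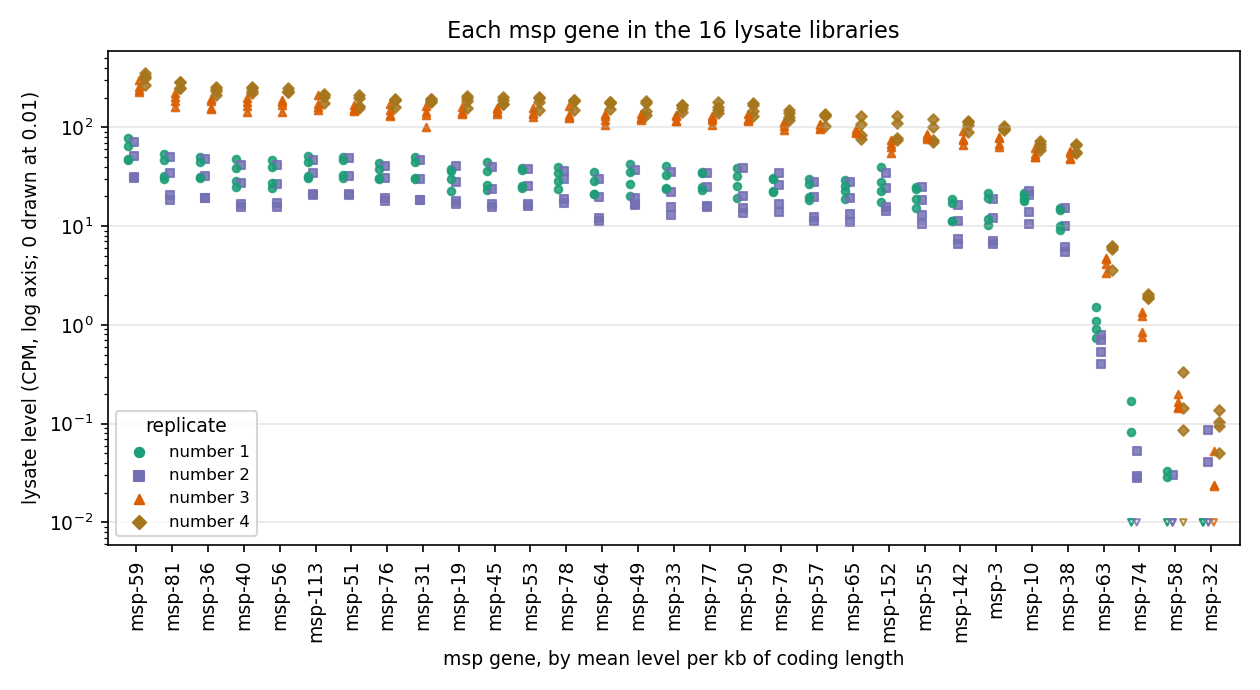
Level of each msp gene (CPM, log axis, with 0 drawn at 0.01 as an open triangle) in the 16 lysate libraries, with genes ordered by mean level per kilobase of coding length; each point is 1 library and colours give the replicate number. The 27 copies on the left show the same step between numbers 1 and 2 and numbers 3 and 4, and the 4 on the right are weak.

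The most abundant copy was msp-59. Its wild type lysates held 46.8, 51.7, 302 and 321 CPM, its ΔLOTR-1 lysates 78.5, 71.5, 257 and 269 CPM, its ΔLOTUS lysates 47.7, 30.6, 240 and 354.5 CPM and its ΔTudor lysates 65.1, 31.5, 228.5 and 331 CPM. As for the sum, the 2 higher lysates of each strain were numbers 3 and 4, and the ranges of the 4 strains overlapped. It made up 7.21%, 7.40%, 7.38% and 7.08% of the family sum at numbers 1 to 4, a share that hardly changed.

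The next copies in level were msp-81, at 32.0, 34.5, 222 and 287 CPM in wild type lysates, and msp-36, at 31.8, 32.6, 192 and 248 CPM. Both had the step of the family. The share of msp-81 in the sum was 4.93% and 4.87% at numbers 1 and 2 and 5.54% and 6.04% at numbers 3 and 4.

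Copies differed in how far they followed the step. Among the 27 the lysate mean of the highest number exceeded that of the lowest by 3.86 to 10.2 times. The smallest log2 changes belonged to msp-152, with 1.36 (SE 0.25) for number 3 and 1.98 (SE 0.25) for number 4 against number 1, and to msp-10, with 1.48 (SE 0.18) and 1.80 (SE 0.18). In the wild type lysates msp-152 measured 17.5, 24.4, 62.9 and 79.1 CPM and msp-10 measured 21.7, 20.8, 53.6 and 63.2 CPM. Their shares of the family sum were accordingly lower at numbers 3 and 4: 3.22% and 3.52% became 1.88% and 2.23% for msp-152, and 2.55% and 2.78% became 1.56% and 1.46% for msp-10. At the other end stood msp-142, with 2.46 (SE 0.22) and 2.95 (SE 0.23). The weak msp-74 had 4.05 (SE 0.53) and 5.00 (SE 0.50), but it passed the low-count filter only through numbers 3 and 4. Its larger step is therefore not a result beside those of the other copies. Whether the division of reads between copies bears on these differences was not tested.

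The weak copies need to be read from their counts. In the 8 lysates numbered 1 and 2 msp-74 was between 0 and 0.168 CPM, and in those numbered 3 and 4 between 0.746 and 2.06 CPM, so that the groups did not overlap. It therefore passed the low-count filter through numbers 3 and 4. In lysates msp-58 had no more than 16.1 estimated counts in any library and was at 0 in 6 of 16, and msp-32 had no more than 6.09 and was at 0 in 7 of 16. Both were too low to be tested in lysates, and msp-32 in polysomes as well. Low as they were, their levels followed the replicate number only in part. In polysomes msp-32 held 0.129 to 0.232 CPM at numbers 3 and 4 and 0 to 0.0756 CPM at numbers 1 and 2, without overlap, from at most 7.17 estimated counts. The msp-58 lysates numbered 3, at 0.144 to 0.201 CPM, lay above every lysate numbered 1 or 2, of which the highest held 0.0333 CPM, while those numbered 4 ran from 0 to 0.331 CPM. In the other fraction of each copy the numbers overlapped. The msp-32 lysates reached 0.0855 CPM at number 2 and at most 0.0534 CPM at number 3. The msp-58 polysome libraries reached 0.400 CPM at number 1 and went down to 0.164 CPM at number 3.

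Genes known to act with the major sperm protein showed the step too, to different degrees. Of 8 genes for the assembly of the protein and its storage organelle, 7 had lysate means higher at both numbers 3 and 4 than at both 1 and 2, which compares with 48.1% of all genes tested. Their lysate means for numbers 1 to 4 were 14.6, 10.0, 102 and 143.5 CPM for gsp-3, a sperm protein phosphatase, and 13.8, 11.3, 89.8 and 119 CPM for its close relative gsp-4. For spe-6, a kinase needed for the assembly of the fibrous bodies, the means of numbers 2 and 4 were 5.42 and 30.5 CPM. The 1 that was lower was spe-39, a vesicle trafficking gene also used outside sperm, at 100.2, 99.7, 59.3 and 35.2 CPM. All 15 genes of the sperm activation and fertilisation list were higher. Among them fer-1, a membrane fusion protein of the sperm organelles, rose from 1.84 and 1.30 CPM at numbers 1 and 2 to 20.0 and 27.2 CPM, and passed the test by number with the other 14 (edgeR), a test that 87.7% of all genes passed. Of 17 relatives that carry a major sperm protein domain (msd, ssp and vpr-1), 15 were higher and 2 were lower, and one of the lower was vpr-1, a gene used in many tissues, at 162, 166.5, 122 and 91.2 CPM. Of 17 genes of the ssq, sss, smz and nspd sperm families, 16 were higher, and nspd-8 was at 0 in every library.

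Genes of the list for sperm transcription and fate were divided. In lysates 3 of 7 were higher at numbers 3 and 4 and 3 were lower, close to the 48.1% and 40.2% of all genes. The clearest step was that of htas-1, a sperm histone gene, with lysate means of 3.74, 2.42, 16.8 and 22.3 CPM at numbers 1 to 4. The rise was smaller in fog-3, which commits germ cells to the sperm fate, at 4.39, 3.92, 5.67 and 7.78 CPM. Another such regulator, fog-1, was lower at numbers 3 and 4, with 38.3, 37.3, 17.5 and 10.9 CPM. The other lower genes were him-17 and fog-2, at 113 and 71.9 CPM for him-17 after 177 and 160 CPM at numbers 1 and 2. For spe-44, a transcription factor that drives sperm genes including msp genes, the lysate means of 21.8, 21.1, 21.5 and 21.3 CPM were nearly level. Its polysome means were not, at 4.45, 3.76, 8.65 and 16.2 CPM, and differed by number (edgeR, adjusted p = 3.63e-09).

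Markers of other tissues moved along the same division. All 16 oocyte and eggshell genes were lower at numbers 3 and 4 in lysates, where 40.2% of all genes were lower. Their summed level over the strains was 16400 to 19700 CPM at number 1, 18870 to 19500 at number 2, 8266 to 9356 at number 3 and 3361 to 5445 at number 4. The 6 vitellogenin genes were lower as well, from a mean of 48320 and 52490 CPM to 37860 and 17310 CPM, and none of the genes of either list was at 0. All 6 muscle genes were higher (3652, 3770, 6081 and 6776 CPM in sum), as were 5 of 6 intestinal genes and 110 of 156 collagens, beside 48.1% of all genes. In the list of genes that receive or relay the sperm signal, 10 of 16 were lower, among them oma-2 and oma-1, zinc finger proteins of maturing oocytes, with 617, 593, 221 and 84.3 CPM for oma-2. The part that these shifts in makeup have in the msp levels was not tested.

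**Figure D3:**
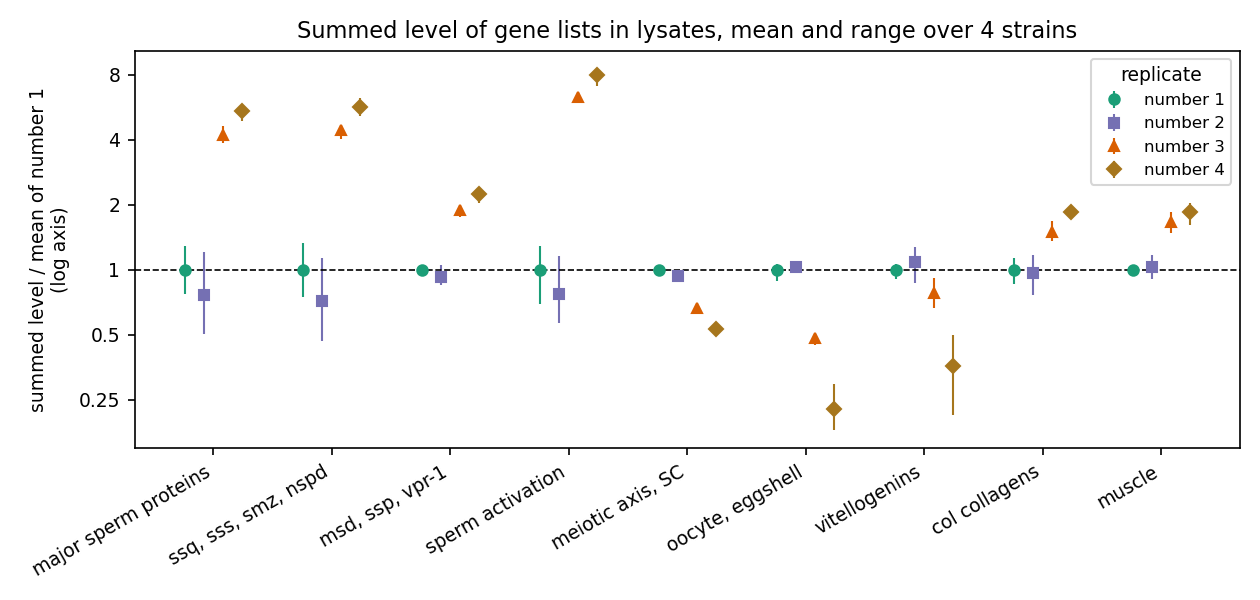
Summed lysate level of each gene list at replicate numbers 1 to 4, divided by its mean at number 1 (log axis); points are means over the 4 strains and bars the range over strains. The msp genes and other sperm genes are higher at numbers 3 and 4, the oocyte, eggshell and yolk genes are lower, and the collagens and muscle genes are higher by a smaller factor.

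The genes outside the family most like it came in part from the ssp, msd and nspd families. Over all 32 libraries, the 10 highest Pearson correlations of log2 CPM with the log2 summed msp level were 0.997 for F44D12.16, 0.997 for ssp-35, 0.996 for msd-2, 0.996 for nspd-1, 0.995 for msd-4, 0.995 for C34D4.3, 0.995 for ZK84.5, 0.994 for nspd-5, 0.994 for ssp-10 and 0.994 for ssp-31. The 27 well-expressed copies themselves correlated with the sum at 0.967 to 0.999. These values describe libraries that share their fraction and replicate number, and no test was made of them.

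Whether loss of LOTR-1 or of 1 of its domains changed the msp genes was asked with each mutant against the wild type. The groups overlapped throughout: the wild type had a mean summed lysate level of 2404 ± 2035 CPM, beside 2417 ± 1618 CPM for ΔLOTR-1, 2263 ± 2078 CPM for ΔLOTUS and 2336 ± 2020 CPM for ΔTudor (SD, n = 4 each). In lysates none of the 29 msp genes tested passed edgeR's quasi-likelihood test at an adjusted p of 0.05 in ΔLOTR-1 (0.270% of all genes did), ΔLOTUS (0.144%) or ΔTudor (0.0753%). None had an unadjusted p below 0.05, and DESeq2 called none, beside 0.791%, 1.15% and 0.853% of all genes. The median log2 changes were -0.01, -0.10 and -0.10, with standard errors of 0.68 to 1.08 for the 27 well-expressed copies, many times the medians themselves.

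Once replicate number entered the fit as a block, the standard errors of these 27 copies fell to between 0.17 and 0.25, and still no msp gene was called. Over all genes the block raised the calls to 7.82%, 20.6% and 13.6% for ΔLOTR-1, ΔLOTUS and ΔTudor. The blocked median of the msp genes in lysates was 0.24 in ΔLOTR-1, where 27 of 29 estimates were above 0, -0.23 in ΔLOTUS, where 24 of 29 were below 0, and -0.12 in ΔTudor, where 24 of 29 were below 0. The medians of all genes were 0.01, -0.01 and -0.00. As the copies can share reads, their estimates are not taken as independent, and these counts of signs carry no test. In ΔLOTR-1 lysates 3 copies had an unadjusted p below 0.05 and in the other 2 mutants 0 had. The share of all genes at that unadjusted level was not taken, so these counts are not a result about the msp genes. The lowest adjusted p of the lysates was that of msp-49 in ΔLOTR-1, with a change of 0.59 (SE 0.21, edgeR with the block, adjusted p = 0.0983). The lysates of msp-49 held 20.2, 19.4, 118.9 and 132 CPM in the wild type and 42.2, 37.4, 136 and 147 CPM in ΔLOTR-1, so the ΔLOTR-1 value was above the wild type one at each of the 4 numbers. In contrast msp-63 had the lowest estimate in that strain, -0.31 (SE 0.25, edgeR with the block, adjusted p = 0.480), with 0.731, 0.794, 4.67 and 5.85 CPM in the wild type and 1.10, 0.707, 3.32 and 3.56 CPM in ΔLOTR-1.

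The 2 domain deletions gave their lowest lysate estimates in other copies. In ΔLOTUS msp-81 had -0.42 (SE 0.21, edgeR with the block, adjusted p = 0.182) and msp-40 had -0.40 (SE 0.21, adjusted p = 0.207). In ΔTudor msp-10 had -0.30 (SE 0.17, edgeR with the block, adjusted p = 0.281). None of these passed.

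**Figure D4:**
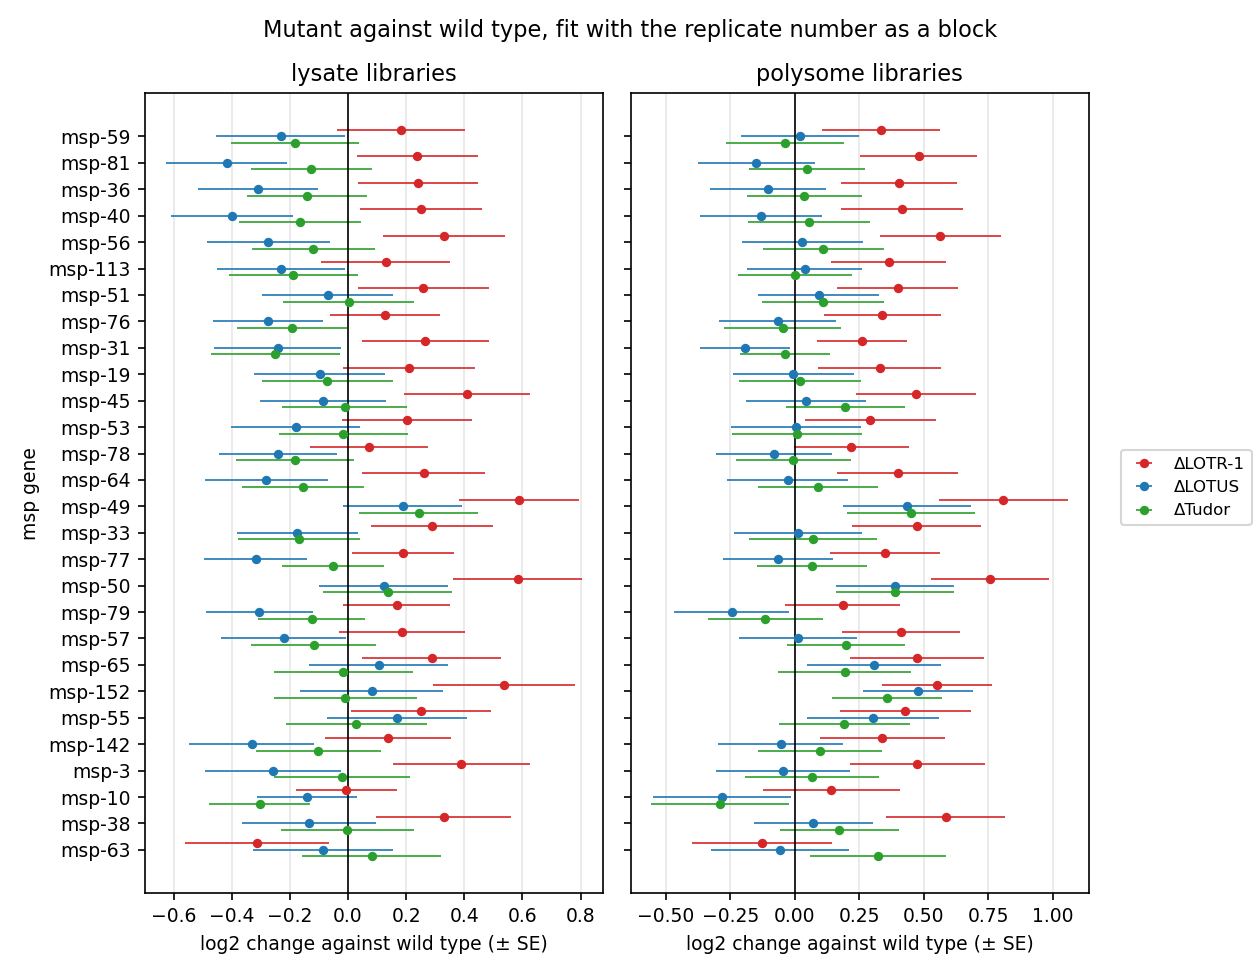
Log2 change of 28 msp genes in each mutant against the wild type, from the edgeR fit blocked by replicate number; points are estimates, bars 1 SE, and colours the 3 mutants, with lysate and polysome libraries in separate panels and msp-32, msp-58 and msp-74 not drawn. In lysates most ΔLOTR-1 estimates lie above 0 and most ΔLOTUS estimates below 0, and no gene passes the test.

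Taken number by number, the ΔLOTR-1 sums stood above the wild type only among the low libraries. The ratio of the ΔLOTR-1 to the wild type lysate was 1.66 at number 1 and 1.46 at number 2, with 28 of 31 copies higher in each, but 0.937 at number 3 and 0.900 at number 4, with 10 and 3 copies higher. In the polysomes the ratios were 1.85, 1.64, 0.973 and 0.963. The sum of the ssq, sss, smz and nspd genes gave lysate ratios of 1.77, 1.51, 0.993 and 0.891 at the same numbers, and the oocyte and eggshell genes gave 0.856, 0.979, 1.07 and 0.836. The activation and fertilisation genes gave 1.86, 1.58, 1.04 and 1.12, above 1 at all 4 numbers, and the relatives with a major sperm protein domain 1.11, 1.13, 1.01 and 0.938. The ΔTudor lysates gave ratios of 1.45, 0.612, 0.860 and 1.05 and the ΔLOTUS lysates 1.07, 0.630, 0.832 and 1.06, with no common direction over the numbers. With 1 library for each strain and number, these ratios and counts of copies carry no test. The share of all genes higher in the same pairs of libraries was not taken, and the 31 copies include the weak msp-32, msp-58 and msp-74.

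In the polysome fraction the wild type averaged 5807 ± 4708 CPM in sum, ΔLOTR-1 6297 ± 3770, ΔLOTUS 6696 ± 6650 and ΔTudor 6357 ± 5286 CPM (SD, n = 4 each). Again none of 30 msp genes was called in edgeR in any mutant, where 0.221%, 0.0585% and 0.0975% of all genes were called in ΔLOTR-1, ΔLOTUS and ΔTudor. None had an unadjusted p below 0.05, and DESeq2 called none, beside 0.410%, 0.267% and 0.215% of all genes. With the block none was called either, beside 0.631%, 1.05% and 0.228% of all genes, and 5, 1 and 0 copies had an unadjusted p below 0.05. For all genes the share at that unadjusted level was not taken, so those counts of copies are not a result. The blocked medians were 0.40, -0.00 and 0.07. The highest estimates in the libraries labelled ΔLOTR-1 were 0.93 (SE 0.53) for msp-58, which rests on few counts, and 0.81 (SE 0.25) for msp-49 (edgeR with the block, adjusted p = 0.401).

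The msp genes were higher in the polysome fraction than in the lysate, more so than most genes. In the wild type, the polysome library exceeded its own lysate in the summed msp level by 2.65, 2.70, 2.39 and 2.36 times at numbers 1 to 4. For ΔLOTR-1 the ratios were 2.95, 3.03, 2.48 and 2.52, for ΔLOTUS 2.85, 2.82, 2.55 and 3.26, and for ΔTudor 2.81, 2.92, 2.88 and 2.58. All 16 lysates therefore gave a ratio above 2, including those in which the msp level was low. On library totals in place of scaled library sizes the 16 ratios were lower, at 1.80 to 2.49, and still all above 1. Both are relative to the other mRNA of the same fraction and are no measure of the fraction of msp molecules bound by ribosomes.

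**Figure D5:**
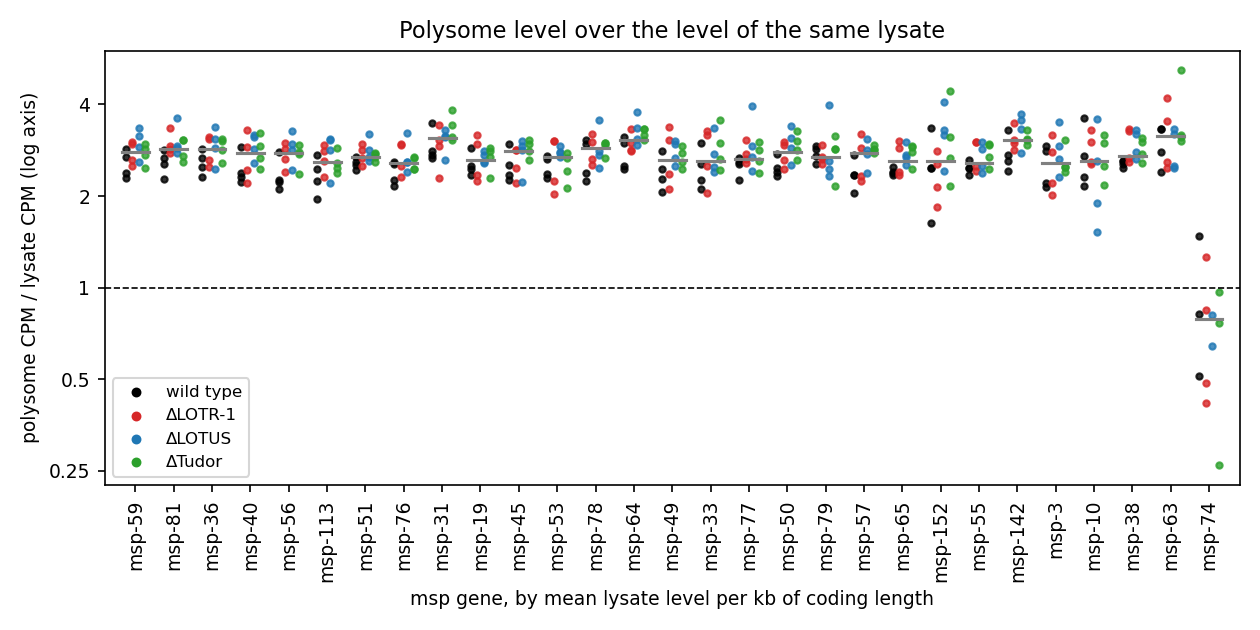
Polysome CPM divided by the CPM of the same lysate (log axis) for 29 msp genes, ordered by lysate level; each point is 1 lysate, colours give the strain, grey bars are medians and the dashed line marks equality. All genes but msp-74 lie above 1 in every lysate.

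Copy by copy, 28 of 30 msp genes tested were above their lysate in all 16 lysates, which was so for 23.5% of all genes. The median ratio of the 27 well-expressed copies ran only from 2.56 to 3.10. For msp-59 the wild type ratios were 2.85, 2.69, 2.30 and 2.38, and its polysome levels there were 133, 139, 694 and 763 CPM. The copy that varied most among the 27 in this respect was msp-152, with ratios from 1.63 to 4.44. An exception was msp-74, whose ratio could be formed in 12 lysates and was above 1 in 2 of them, with a median of 0.789. Its wild type lysates held 0, 0.0528, 1.22 and 2.06 CPM and its wild type polysomes 0.0377, 0.0783, 1.00 and 1.05 CPM, so at numbers 3 and 4, where it was detected well above 0, the polysome value was the lower one.

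The test of this difference depends on the pairing of the 2 libraries from each lysate. Without it, the wide spread between replicate numbers left 0 of 30 msp genes called in the wild type (19.3% of all genes), 1 in ΔLOTR-1 (23.3%), none of 30 in ΔLOTUS (23.6%) and none of 30 in ΔTudor (24.0%) by edgeR. At an unadjusted p below 0.05 there were 0, 1, 1 and 1, a level at which the share of all genes was not taken. DESeq2 called 0, 1, 0 and 0, beside 20.5%, 24.8%, 25.1% and 24.9% of all genes. In the edgeR fit the 1 called was msp-58, with a log2 change of 3.35 (SE 1.21, edgeR, adjusted p = 0.0453), from lysates in which 3 of 4 libraries were at 0. With the lysate as a block, 28 of 30 were called in the wild type (55.5% of all genes), 29 of 30 in ΔLOTR-1 (58.3%), 28 of 30 in ΔLOTUS (59.2%) and 29 of 30 in ΔTudor (59.1%). All of these msp genes were higher on polysomes and none was lower, whereas over all 16253 genes 4711 were called higher and 4317 lower in the wild type. The 29 in ΔLOTR-1 and ΔTudor included msp-58, which was too low to be tested in lysates and entered this fit through its polysome libraries. Its call is therefore not a result beside those of the other copies. The blocked median log2 change of the msp genes was 1.33, 1.44, 1.49 and 1.47 in the 4 strains, against 0.08, 0.05, 0.08 and 0.04 for all genes. The scaling of DESeq2 lowered the unblocked wild type median of all genes from 0.07 to -0.05 and that of the msp genes from 1.28 to 1.17, so that both moved down together.

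In the wild type the blocked changes of the 27 copies lay between 1.22 (msp-113, SE 0.10) and 1.53 (msp-31, SE 0.10), all with adjusted p of at most 4.79e-06 (edgeR). In ΔLOTR-1 they ran from 1.20 (msp-152, SE 0.17) to 1.62 (msp-142, SE 0.09), in ΔLOTUS from 1.20 (msp-10, SE 0.16) to 1.73 (msp-142, SE 0.09), and in ΔTudor from 1.31 (msp-53, SE 0.10) to 1.74 (msp-31, SE 0.10). The differences between copies were thus small beside their common change. For msp-74 the estimates were -0.49 (SE 0.37), -0.62 (SE 0.36), -0.45 (SE 0.39) and -0.37 (SE 0.37) in wild type, ΔLOTR-1, ΔLOTUS and ΔTudor, and it was not called in any of the 4 (edgeR with the block, adjusted p = 0.276, 0.157, 0.331 and 0.400).

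The share of other sperm genes called higher on polysomes differed by list, from well above that of all genes to below it. In the wild type, with the block, 29% of all genes were called higher on polysomes and 26.6% lower. Of the sperm lists, 13 of 17 relatives with a major sperm protein domain were higher on polysomes and 0 lower, and 15 of 16 tested genes of the ssq, sss, smz and nspd families were higher and 1 lower. The lower one was sss-1, with a median ratio of 0.430. Of the activation and fertilisation genes 4 of 15 were higher, a share near that of all genes, and 1 was lower, with a median log2 change of -0.03, and the membrane fusion gene fer-1 had a median ratio of 0.607, below 1 in all 16 lysates. Of the 8 assembly genes 4 were higher and 1, spe-39, was lower, while of the 7 genes for sperm transcription and fate 1 was higher and 4 were lower. The median ratio was 0.297 for spe-44 and 0.201 for fog-1. Of the oocyte and eggshell genes 14 of 16 were lower, and the 2 that were higher, perm-2 and perm-4, code for eggshell layer proteins. Ribosomal protein genes were higher in 67 of 68 cases, with a median log2 change of 1.21, close to that of the msp genes.

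Translational efficiency, the change of the polysome to lysate difference in a mutant, came from the interaction term between strain and fraction. None of 30 msp genes was called in any of the 3 mutants, in a fit that called 0% of all genes in each, and none had an unadjusted p below 0.05 (edgeR). With the lysate as a block none was called, beside 0.0554%, 0% and 0.00615% of all genes in ΔLOTR-1, ΔLOTUS and ΔTudor, and 0, 4 and 0 copies had an unadjusted p below 0.05. No share of all genes was taken at that unadjusted level, so the 4 are not a result about the msp genes. DESeq2 called none of them, beside 0.0308%, 0.0492% and 0.0369% of all genes. The blocked medians were 0.13, 0.18 and 0.16, with 27, 28 and 28 of 30 estimates above 0. Over all genes the blocked medians were 0.02, 0.03 and 0.02. Because the copies can share reads, their estimates are not taken as independent, and the number above 0 carries no test. For the 27 well-expressed copies the blocked estimates lay between -0.06 and 0.22 in ΔLOTR-1, between -0.20 and 0.41 in ΔLOTUS and between -0.02 and 0.32 in ΔTudor, with standard errors of 0.10 to 0.24.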

How the data were processed

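Poly(A) RNA of 4 strains, in lysate and polysome fractions with 4 biological replicates each per the labels, was sequenced from stranded libraries. The authors deposited Salmon estimated counts per gene and a replicate-adjusted table whose values are a score of unstated scale; the tools Salmon and DESeq2 come from the submitters' processing notes, while the sources used here do not state genome build, versions or the adjustment. The p-values measure the spread between these libraries.

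Estimated counts were rounded and tested with edgeR 4.0.16 (R 4.3.3; TMM scaling, filterByExpr, quasi-likelihood F test, Benjamini-Hochberg over all genes, threshold 0.05): 15939 genes in the 16 lysates, 15378 in the 16 polysomes and 16253 over 32 libraries, from 46926 rows. CPM uses TMM library sizes of the 32-library fit. Coding lengths and neighbours come from RefSeq WBcel235. On simulated counts with 2-fold changes in 200 genes, the ΔLOTR-1 lysate fit recovered 99.5% and that of ΔLOTR-1 translational efficiency 91.5%. The simulated counts held no differences by replicate number, so this recovery does not carry over to the unblocked fits of the real libraries. Depth was 27 to 40.2 M counts per library.

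The main fits of strain and fraction have no replicate term, as the study's description of these comparisons states none. Its authors did, however, deposit the replicate-adjusted table. Polysome and lysate libraries of one lysate are paired by design. Across strains, same-numbered libraries correlated at 0.90 to 0.963 in lysates and 0.783 to 0.933 in polysomes (deviations of log2 CPM + 0.5 from group means, 16253 genes), so numbers pair samples and blocked results are given. DESeq2 1.42.0, limma 3.58.1 on log2 of the adjusted score + 1, other scaling and filters, and leaving out libraries were alternatives.

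Named are the 3 highest and 3 lowest tested copies, the 2 highest and lowest changes per comparison, up to 4 genes per list by level, the 10 genes most correlated with the family, and a few chosen after their values were seen (among them spe-44, fog-1, htas-1, fog-3, fer-1, sss-1, spe-6, msp-49, msp-59's ratios and msp-74). The members and gene lists were chosen with earlier results of these data known.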

Additional observations from a re-analysis of the deposited data

Results flagged for a closer look

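In 3 of 256 groups of 4 libraries examined gene by gene, 1 library lay far from the other 3. The rule used flags about 1 in 20 groups by chance when the 4 libraries share a common level. Most groups here held 2 low and 2 high libraries by replicate number, so that rate does not apply to them. The count of 3 therefore does not show that the other groups were free of outlying libraries. All 3 flagged groups concern copies with few counts. The ΔLOTUS lysate of replicate 4 held msp-32 at 0.104 CPM (5.07 estimated counts), with the other 3 at 0. The ΔLOTR-1 lysate of replicate 3 held msp-58 at 0.148 CPM (6.46 estimated counts), with the other 3 at 0. The ΔLOTUS polysome library of replicate 4 held msp-58 at 0.493 CPM, against 0.132 to 0.189 CPM in the other 3.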

How the results depend on the processing

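The comparisons of strains and of translational efficiency called 0 msp genes in each alternative run: DESeq2, other scaling, no filter, fits of 8 libraries, the block, the adjusted table and each library left out. The medians without a library or a whole replicate number ran from -0.36 to 0.51 for ΔLOTR-1 lysates and from -0.78 to 0.46 for ΔLOTUS lysates. For ΔTudor lysates they ran from -0.67 to 0.47, so the direction of an unblocked median depends on the libraries included. The difference by replicate number kept 29 calls in lysates and 29 to 30 in polysomes. Polysome against lysate moved most. With the replicate block 28, 29, 28 and 29 genes were called in wild type, ΔLOTR-1, ΔLOTUS and ΔTudor, and limma on the adjusted table called 28, 29, 28 and 29. The replicate block without 1 replicate number called 28 in the wild type, 29 in ΔLOTR-1, 28 in ΔLOTUS and 28 to 29 in ΔTudor. Without the block, the msp-58 call of ΔLOTR-1 was lost with no low-count filter (0 called). Refits without a library or a whole replicate number called 0 to 1 in ΔLOTR-1, with a call in 3 of 12. The same refits of ΔLOTUS called 0 to 1, the 1 arising without ΔLOTUS lysate replicate 4. The cause was not tested. Summing copies with identical proteins was not run. No called direction reversed. Few counts limit msp-32, msp-58 and msp-74, and msp-58 entered the filtered fits of polysome against lysate through its polysome libraries. Reads that copies may share limit single copies.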
